A study of Mus musculus with 23 samples.

Results

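Pax3 and Pax7 are paralogous paired-box transcription factor genes, 2 of the 21264 genes listed in the deposited expression table, and were taken by their symbols over all 23 libraries. Pax3 (ENSMUSG00000004872) lies on the minus strand of chromosome 1, at chr1:78101267-78197134, and Pax7 (ENSMUSG00000028736) on the minus strand of chromosome 4, at chr4:139737062-139833528 (GRCm38/mm10, GENCODE M21). All libraries were made from mouse iPAX3 cells, an embryonic stem cell line used to derive myogenic progenitors through induced Pax3. In culture there were 4 control libraries (genotype WT) and 3 N1OE libraries with NICD1 overexpression, NICD1 being the cleaved, active part of Notch1. Cells labelled as donor-derived satellite cells, re-isolated after engraftment, gave 9 control (WT), 4 N1OE (NICD1 overexpression) and 3 N1KO (Notch1 KO) libraries. The inducer, its presence at harvest, the promoter that drives NICD1, the number of clones, the pooling of animals and the host are not stated in the sources used here. Reads counted on Pax3 do not tell the endogenous gene from an introduced copy.

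In the embryo Pax3 marks the presomitic mesoderm and the dermomyotome, and it is required for myogenic progenitors to migrate into the limbs. Pax7 marks a population that overlaps with it and becomes the defining factor of satellite cells, which regenerate adult skeletal muscle, and there it maintains the quiescent and self-renewing state. Both proteins bind DNA through a paired domain and a homeodomain, and both act upstream of the determination factors Myf5 and Myod1. Outside muscle the genes are expressed in the dorsal neural tube and neural crest.

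Reads in the listed genes numbered 11637817 to 29154176 per library, so that 1 read was worth 0.0343 to 0.0859 CPM (reads scaled to the total of the library). Cultured and re-isolated cells were also prepared with different library kits, so setting and kit cannot be told apart. The column headers of 5 re-isolated controls (replicates 1, 4, 7, 8 and 9, called marked) carry the suffix GoF, which the labels do not explain, and those of the other 4 (replicates 2, 3, 5 and 6, called unmarked) do not. The description of replicate 7 lacks it. In culture it stands on all 4 controls and on N1OE replicate 1, and no re-isolated N1OE or N1KO library does. Genes at exactly 1 read outnumbered those at exactly 2 by 4.17 to 5.91 times in marked and 1.08 to 1.502 times in unmarked controls. In re-isolated N1OE libraries this ratio was 4.18 to 6.82, and N1KO libraries had 1.25 to 1.40. The comparisons of N1OE with N1KO, of N1OE with unmarked controls and of N1KO with marked controls thus cross the same split as the control sets. Genotype and split cannot be told apart in them. Tests of Pax3, Pax7 and the gene lists against the re-isolated controls are therefore given over all 9 and within each set. The labels do not state whether replicates are distinct cultures or animals. The p-values therefore describe spread among these libraries, some of which may be technical.

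The coding sequences of the paralogs are alike, which bears on whether reads of a highly expressed Pax3 could be counted on Pax7. Over 1421 aligned bases of the longest coding transcripts (1455 coding bases in Pax3 and 1518 in Pax7) 76.1% were identical. The longest identical run had 26 bases, at coding positions 79 to 104 of each gene, across the junction of exons 1 and 2 (chr1:78195468-78196671 and chr4:139830355-139832833, minus strand, intron included). No stretch of 30 bases was shared. The run is shown in capitals, with 30 bases on each side in lower case, from the GENCODE M21 transcripts.
Pax3: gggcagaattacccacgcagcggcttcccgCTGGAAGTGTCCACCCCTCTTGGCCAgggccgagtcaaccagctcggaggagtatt
Pax7: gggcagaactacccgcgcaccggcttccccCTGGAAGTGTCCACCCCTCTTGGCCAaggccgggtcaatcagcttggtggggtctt

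The Pax7 promoter is shown because Pax7 went from almost no reads in culture to a clear level after engraftment. The window covers 250 bases before to 50 bases after the RefSeq start (GRCm38.p6, chr4:139832919-139833218, minus strand). The GENCODE M21 gene given above begins further upstream, at chr4:139833528, so the annotations differ and the window lies within that gene. Capitals mark the CG dinucleotides.
Pax7 promoter: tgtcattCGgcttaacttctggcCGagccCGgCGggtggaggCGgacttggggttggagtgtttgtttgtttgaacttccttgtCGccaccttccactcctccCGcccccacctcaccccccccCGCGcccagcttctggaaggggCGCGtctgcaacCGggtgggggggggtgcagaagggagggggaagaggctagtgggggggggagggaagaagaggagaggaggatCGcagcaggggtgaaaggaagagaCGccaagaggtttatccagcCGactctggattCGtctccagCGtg
It holds 17 CG dinucleotides, against a median of 7 over 32851 mouse promoters, and its GC content of 63.7% exceeds that of 79.1% of them. TGGGAA, the core bound by the Notch effector Rbpj, was not found on either strand, and neither were the E-box CANNTG or the homeodomain core TAATTA. These letters occur in 25.6%, 72.3% and 5.29% of the promoters. Their absence here says only that the window does not hold them.

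Pax3 was abundant in culture and low after engraftment. The 4 cultured controls measured 1328, 232, 844 and 77.8 CPM and the 3 cultured N1OE libraries 358, 545 and 553 CPM. The controls covered a 17.1-fold range, and the N1OE libraries lay inside it. Re-isolated controls had a minimum of 2.18, a median of 13.9 and a maximum of 34.0 CPM. Re-isolated N1OE replicates 1 to 4 measured 45.4, 44.9, 75.5 and 57.8 CPM. N1KO replicates 1 to 3 measured 31.5, 27.4 and 49.2 CPM. All 4 re-isolated N1OE libraries exceeded all 9 controls, while only N1KO replicate 3 did so in its group. How many of all genes separate groups in this way was not counted, here or in later paragraphs. By mean and SD the order was cultured control (620 ± 576 CPM, n = 4), cultured N1OE (486 ± 110, n = 3), re-isolated N1OE (55.9 ± 14.4, n = 4), N1KO (36.01 ± 11.6, n = 3) and re-isolated control (14.6 ± 10.01, n = 9). The libraries of cultured control and cultured N1OE overlapped, as did those of re-isolated N1OE and N1KO and those of N1KO and control. On the log2 scale the mean of cultured N1OE (8.90) lay above that of cultured controls (8.56).

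Pax7 showed the opposite pattern between settings. It had 1, 0, 0 and 3 reads in the 4 cultured controls and 18, 3 and 1 reads in the 3 cultured N1OE libraries. The highest of these, N1OE replicate 1, stood at 0.891 CPM, and the 3 reads of the floor were worth up to 0.196 CPM in cultured libraries. After engraftment Pax7 was read in all 16 libraries. Controls had a minimum of 11.5, a median of 51.8 and a maximum of 113 CPM. N1OE replicates 1 to 4 measured 91.8, 154, 98.6 and 98.1 CPM, and N1KO replicates 1 to 3 measured 19.9, 33.4 and 153 CPM. N1KO thus held 2 of the 4 lowest values and the second highest value of the 16 libraries. The order by mean was re-isolated N1OE (111 ± 29.0 CPM, n = 4), N1KO (68.6 ± 73.0, n = 3), control (56.1 ± 32.2, n = 9), cultured N1OE (0.377 ± 0.451, n = 3) and cultured control (0.0561 ± 0.0844, n = 4). Neighbouring groups overlapped within each setting, and no re-isolated library overlapped a cultured one.

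**Figure D1:**
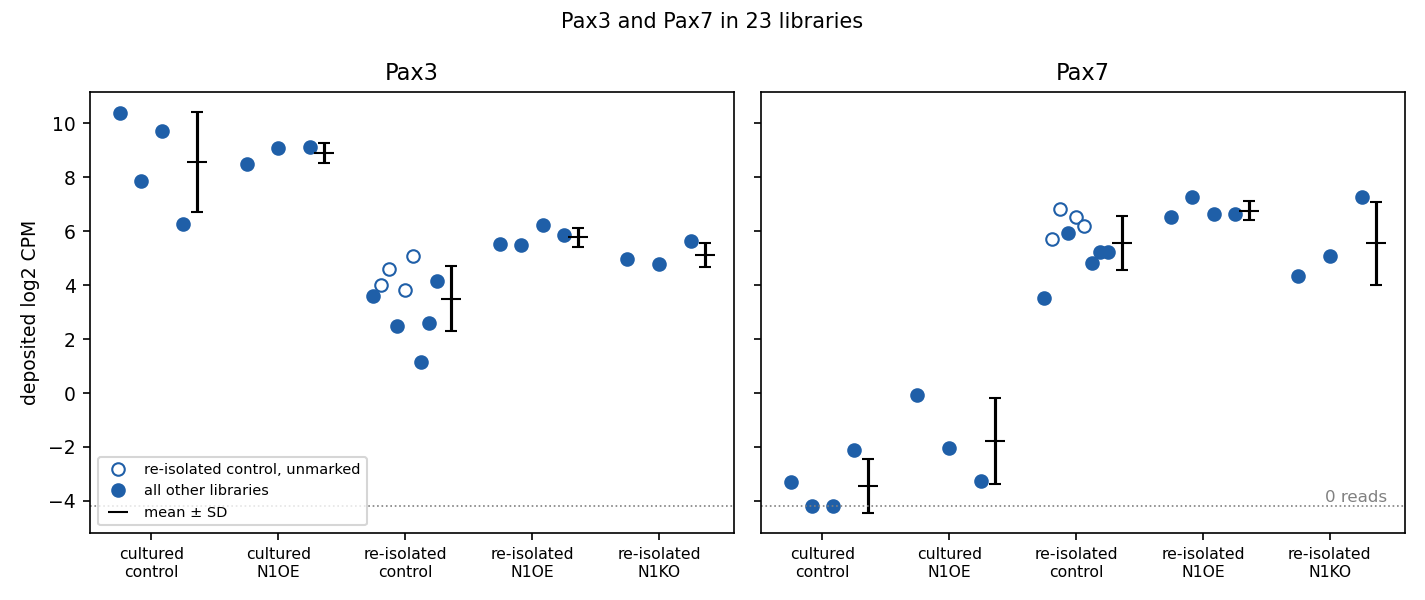
Deposited log2 CPM of Pax3 (left) and Pax7 (right) in each library of the 5 groups, with the mean and SD of a group beside its points; open points are the 4 unmarked re-isolated controls and the dotted line is 0 reads. Pax3 is highest in culture, and Pax7 lies at or near 0 reads there and between 11.5 and 154 CPM after engraftment.

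Pax3 was lower in re-isolated than in cultured controls, with a fitted log2 difference of -5.06 ± 0.74 (SE; limma, adjusted p = 3.46e-05). In N1OE the difference was -3.12 ± 0.32 (adjusted p = 2.62e-06). Pax7 rose in both. Pooled reads gave 55.5 CPM in re-isolated against 0.0531 CPM in cultured controls, a ratio of 1046 (95% exact counting interval 408 to 3840), with adjusted p = 1.03e-08 by limma. Without cultured control replicate 4, which holds 3 of the 4 reads, the ratio was 3251 (583 to 128419). In N1OE the ratio was 278 (183 to 443, adjusted p = 8.91e-08), and 974 (380 to 3574) without cultured N1OE replicate 1. Of all genes tested 58.1% were called in the control comparison (24.1% higher and 33.9% lower) and 58.2% in the N1OE comparison (25.3% higher and 33% lower), and the median gene was lower by -0.23 in each, so a call here is common. Of 8 muscle stem cell markers all reached a mean of 1 CPM in each re-isolated group, and 7 of 8 did so in culture, where Pax7 was the exception. This floor cannot tell the labelled satellite cells from cultured progenitors. Their sum was 456 to 809 CPM in cultured and 1279 to 2766 CPM in re-isolated controls. Other lists were higher too, with pericyte and smooth muscle markers at 191 to 814 and 923 to 3164 CPM. Neural crest, dorsal neural tube and melanocyte markers stood at 59.8 to 129 and 404 to 1261 CPM.

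In culture NICD1 left Pax3 without a call. The log2 fold change was 0.34 ± 0.92 (adjusted p = 0.831, limma; 95% interval -1.83 to 2.50), in a comparison where 10.8% of the tested genes were called (4.73% higher and 6.03% lower). That total of 1325 genes rests on single libraries: dropping N1OE replicate 1 left 354, replicate 2 left 164, replicate 3 left 158, and dropping control replicate 2 left 584. As a fold the interval runs from 0.281 to 5.67, and the direction turned to -0.42 without control replicate 4. Pax7 did not reach 1 CPM in any cultured library and was not tested. Its pooled reads, 22 in N1OE and 4 in controls, gave a ratio of 7.43 (counting interval 2.52 to 29.7). That ratio was 2.12 (0.395 to 11.4) without N1OE replicate 1 and 23.1 (3.73 to 954) without control replicate 4. With no filter on low values limma gave adjusted p = 0.244.

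The re-isolated controls differed among themselves in both genes. Their sets were compared because earlier results of these data had shown the controls to fall apart along the header suffix, so the p-values describe a split already seen. Pax3 was 8.66 ± 6.09 CPM in the 5 marked and 22.1 ± 9.15 CPM in the 4 unmarked libraries (log2 fold change -1.58 ± 0.53, adjusted p = 0.0429, limma). Pax7 was 35.3 ± 18.2 and 82.2 ± 26.1 CPM (-1.35 ± 0.42, adjusted p = 0.0310). Of all tested genes 27.6% were called between these sets, 13.6% higher and 14% lower in the marked one. Without replicate 7 limma called 2434 genes in place of 3645, the fewest on dropping any library. With it among the unmarked controls, a choice made after seeing the data, limma called 0 of 13230 genes, neither Pax3 nor Pax7 among them. At an unadjusted p under 0.05 there were 2304. Replicate 7 had 4.17 times as many genes at 1 read as at 2, within the marked range (4.17 to 5.91) and above the unmarked one. Pax3 values of the sets overlapped, while Pax7 did so through marked replicate 4 (61.6 CPM) and unmarked replicate 2 (51.8 CPM). Leaving out replicate 2, 3, 4, 5, 6, 7 or 8 ended the Pax3 call (adjusted p up to 0.114), and leaving out 3, 5, 6 or 7 ended the Pax7 call (up to 0.0980). The marked set also carried more fibro-adipogenic transcripts: Pdgfra, Ly6a, Dcn and Lum, 4 of 4 read, summed to 965 to 9383 CPM there and to 50.5 to 408 CPM in the unmarked set. Their part in the difference was not tested, and in bulk RNA fewer cells of a type and less RNA per cell cannot be told apart.

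After engraftment N1OE cells had more Pax3 than controls, over all 9 and within each set. Over all controls the log2 fold change was 2.27 ± 0.52 (adjusted p = 0.0105, limma; 4.83-fold, 95% interval 2.29 to 10.2), where 7.06% of the tested genes were called (3.78% higher and 3.29% lower). Against the marked controls it was 2.98 ± 0.47 (adjusted p = 0.000146, with 12.2% of genes called, 6.74% higher and 5.5% lower) and against the unmarked controls 1.39 ± 0.38 (adjusted p = 0.00851, with 20.6% called, 9.98% higher and 10.6% lower). This call of Pax3 held whichever library was left out, with adjusted p up to 0.0488 over all controls, 0.00453 against the marked set and 0.0466 against the unmarked set. With control replicate 7 among the unmarked controls it was 2.57 against the marked (adjusted p = 7.89e-05) and 2.04 against the unmarked ones (0.0453). Of all genes, 1000 were called over all controls, but 562 on dropping N1OE replicate 2 and 593 on dropping replicate 3. Against the marked set 1630 were called, and 1072 on dropping N1OE replicate 2.

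Pax7 in N1OE gave a call against the marked controls alone. Its log2 fold change there was 1.81 ± 0.40 (adjusted p = 0.00398, limma; at most 0.0325 whichever library was dropped), and 4 of 4 N1OE libraries exceeded 5 of 5 marked controls. The share of all genes with such a separation was not counted. Against the unmarked controls it was 0.45 ± 0.36 (adjusted p = 0.385; 95% interval -0.27 to 1.18), and over all controls 1.20 ± 0.51 (adjusted p = 0.164). The difference between these within-set values is the difference between the control sets given above. The 8 muscle stem cell markers, Pax7 among them, summed to 2154 to 3097 CPM in N1OE, 1279 to 1962 CPM in marked and 2124 to 2766 CPM in unmarked controls. Of 6 Schwann and glial markers 5 reached a mean of 1 CPM in N1OE, and their sum came to 201 to 395 CPM in N1OE and 49.7 to 257 CPM in controls. Of 5 tested, 2 were called higher over all controls, 2 against the marked and 4 against the unmarked ones, beside 3.78%, 6.74% and 9.98% of all genes. The 11 neural crest, dorsal neural tube and melanocyte markers overlapped, at 497 to 1519 CPM in N1OE and 404 to 1261 CPM in controls. Of 8 tested, 2 were called higher over all controls, 4 against the marked and 3 against the unmarked ones. The shares of all genes were 3.78%, 6.74% and 9.98%. Sox10, the defining factor of neural crest and glia, is counted in this list and in the Schwann and glial one, and stood at 99.2 against 14.6 CPM. The melanocyte gene Tyr had 0 reads and Dct 0.0215 CPM in N1OE. The 4 endothelial markers, 4 of 4 at a mean of 1 CPM or more in N1OE, summed to 37.03 to 70.6 CPM in N1OE, above all 9 controls (4.86 to 35.8 CPM). They were called higher in 1 of 4 over all controls, 2 of 4 against the marked and 4 of 4 against the unmarked ones. The part of these transcripts in the Pax3 and Pax7 results was not tested.

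Notch1 knockout gave no call for either gene. Pax3 was higher by 1.63 ± 0.58 over all controls (adjusted p = 0.227, limma, 95% interval 0.43 to 2.83). There 0.657% of genes were called, 0.466% higher and 0.191% lower. Pax3 was higher by 2.33 ± 0.59 against the marked (adjusted p = 0.0577, 1.02 to 3.64) and by 0.75 ± 0.36 against the unmarked controls (adjusted p = 0.231, -0.05 to 1.54). These intervals are not adjusted for the number of genes tested. All 3 N1KO libraries exceeded all 5 marked controls in Pax3, a separation that was not counted over all genes. Leaving out control replicate 1 or 9 brought the marked comparison past the threshold (adjusted p = 0.0468 and 0.0361). That comparison crosses the split in the ratio of genes at 1 read to genes at 2, which cannot be told apart from genotype. Pax7 differed by -0.01 ± 0.57 over all controls (adjusted p = 0.998; 95% interval -1.20 to 1.18), by 0.59 ± 0.67 against the marked (adjusted p = 0.626) and by -0.76 ± 0.58 against the unmarked controls (adjusted p = 0.461). N1KO replicate 3 decided the last value: without it Pax7 was lower than in the unmarked controls by -1.61 (adjusted p = 0.0230), and against the marked controls the direction turned to -0.26 (adjusted p = 0.825). The fibro-adipogenic markers summed to 4130, 13319 and 5970 CPM in N1KO replicates 1 to 3 and to 162 to 323 CPM in N1OE. The 8 muscle stem cell markers summed to 1181, 1178 and 2147 CPM in the same N1KO libraries. The endothelial markers, 4 of 4 at a mean of 1 CPM or more, summed to 28.2, 86.2 and 91.2 CPM there, against 4.86 to 35.8 CPM in controls. Of these 4, 2 were called higher over all controls, 2 against the marked and 1 against the unmarked ones. The shares of all genes called higher were 0.466%, 1.67% and 4.18%. The part of these transcripts was not tested. The 93 genes called over all controls were 12 to 56 without N1KO replicate 1 or 2, N1OE replicate 1, 2 or 3 or control replicate 2, 4, 5 or 7.

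N1OE and N1KO were not told apart by Pax3 (0.65 ± 0.66, adjusted p = 0.588, 95% interval -0.73 to 2.02) or Pax7 (1.21 ± 0.65, adjusted p = 0.271, -0.15 to 2.57) in a comparison with 7.35% of genes called (limma; 2.92% higher and 4.43% lower). Nor did the N1OE effect differ between settings past the threshold. The Pax3 effect was greater after engraftment by 1.94 ± 0.97 (adjusted p = 0.361, with 3.27% of genes called, 2.36% higher and 0.91% lower, 95% interval -0.06 to 3.93). That of Pax7 differed by -0.46 ± 0.96 (adjusted p = 0.887), a value that rests on a cultured level near 0 reads and turned to 0.40 without cultured N1OE replicate 1.

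**Figure D2:**
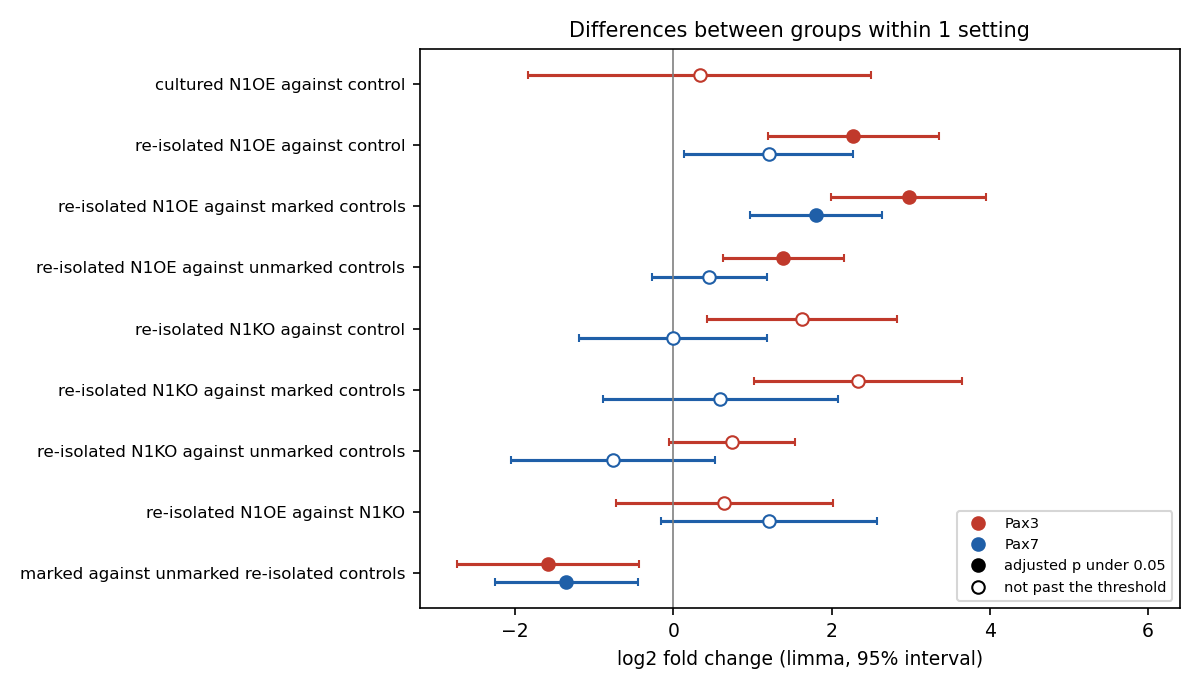
Log2 fold changes of Pax3 (red) and Pax7 (blue) between groups of the same setting, with 95% intervals of limma; filled points passed an adjusted p of 0.05 and Pax7 was too low to test in culture. Pax3 is called in N1OE against all, marked and unmarked controls, and Pax7 against the marked controls, and both genes are called between the control sets.

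Per length of exon (RPKM, using 6.187 kb for Pax3 and 5.86 kb for Pax7), Pax7 exceeded Pax3 in 15 of 16 re-isolated libraries and in 0 of 7 cultured ones. In re-isolated control replicate 1 this order rests on the lengths used, since it had 349 Pax3 and 332 Pax7 reads. These lengths would not hold for reads from an introduced copy of Pax3. The Pax7 to Pax3 ratio in controls had a minimum of 1.004 (replicate 1), a median of 4.87 and a maximum of 13.6 (replicate 7). In N1OE replicates 1 to 4 it was 2.13, 3.61, 1.38 and 1.79, and in N1KO replicates 1 to 3 it was 0.667, 1.29 and 3.28. The N1OE ratios lay within the control range, and N1KO replicate 1, the library in which Pax3 led per length, fell below it. As mean log2 ratios these were 2.14 ± 1.23 in controls, 1.06 ± 0.59 in N1OE and 0.50 ± 1.15 in N1KO (SD, n = 9, 4 and 3). The difference from controls was -1.08 in N1OE (two-sided exact permutation p = 0.129) and -1.64 in N1KO (exact permutation p = 0.0727), and N1OE exceeded N1KO by 0.56 (exact permutation p = 0.400). Adjusted over these 3 comparisons the values were 0.193, 0.193 and 0.400. The smallest p the designs allow is 0.00280, 0.00909 and 0.0571. Hence Pax3 passed the threshold in N1OE and Pax7 did not over all controls, but the difference between the genes was not past it.

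**Figure D3:**
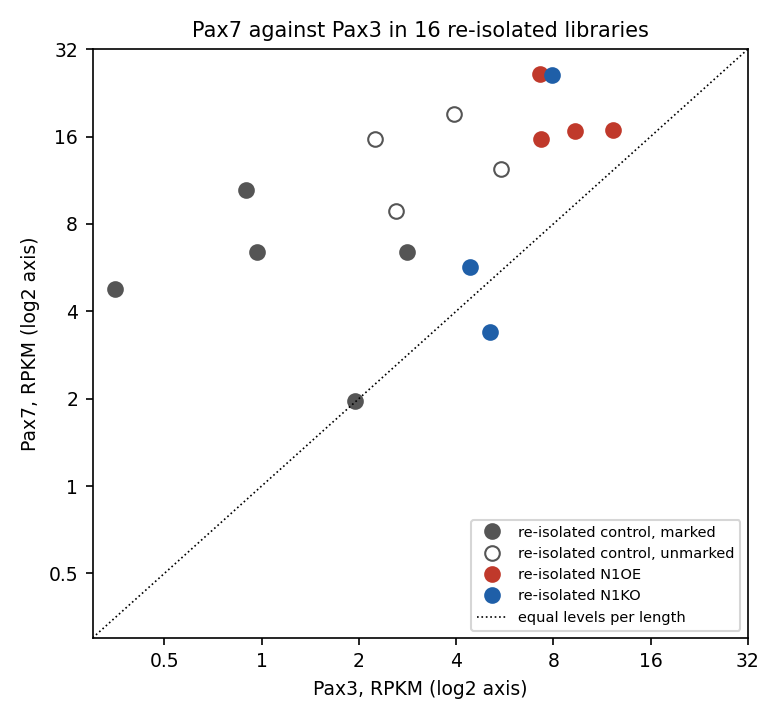
Pax7 against Pax3 in RPKM (log2 axes) in the 16 re-isolated libraries, 1 point each, with equal levels dotted. The N1OE libraries lie at 7.26 to 12.2 RPKM of Pax3, to the right of all controls, with Pax7 at 15.7 to 26.2 RPKM; N1KO replicate 3 (7.95 and 26.04 RPKM) lies among them and N1KO replicate 1 lies under the line.

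Among the 9 Pax genes Pax3 and Pax7 were the main members. Pax6, a factor of eye and brain, was also read in all 16 re-isolated libraries, at 5.76 ± 7.39 CPM in controls, 5.43 ± 1.71 in N1OE and 1.29 ± 1.12 in N1KO. It was lower in marked than unmarked controls (-3.97 ± 0.70, adjusted p = 0.00223), higher in N1OE than in marked controls (2.97 ± 0.71, 0.00660) and lower in N1KO than in unmarked controls (-3.37 ± 0.69, 0.0194, limma). The last call was lost without control replicate 2 or 3 or N1KO replicate 2 (up to 0.0652), and with control replicate 7 among the unmarked controls so were it and the call between the control sets (up to 0.380 and 0.250). Pax6 was also higher in re-isolated than cultured controls (4.64, adjusted p = 0.00255) and N1OE (5.21, 1.14e-05). Pax1, a factor of the sclerotome, had 0 reads in the 4 re-isolated N1OE libraries and 3.78 ± 5.31 CPM in N1KO (adjusted p = 0.0405). That call was lost whichever N1OE library was left out (up to 0.0750). Pax8 had a mean of at most 0.0716 CPM, Pax2 of 0.0774, Pax5 of 0.102 and Pax4 of 0.817 CPM. Pax9 was listed between 0 and 56.1 CPM in re-isolated controls and gave no call.

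A list of 12 genes reported as targets of Pax3 or Pax7 was described next, in terms of its counts alone. In cultured N1OE, beside 4.73% and 6.03% of all genes, 1 of 9 tested members rose and 1 fell (median log2 fold change 0.68, against 0.07 over all genes). Dmrt2, a dermomyotome factor, rose by 2.08 ± 0.36 (adjusted p = 0.0169, limma) and Myod1 fell by 2.81 ± 0.55 (0.0241). Each call was lost whichever N1OE library was left out, and that of Myod1 also without control replicate 2 (adjusted p up to 0.0821 and 0.116). Levels of Dmrt2 were 193 ± 11.1 CPM in N1OE and 49.8 ± 23.8 in controls. Those of Myod1 were 4.55 ± 2.03 and 35.7 ± 21.1 CPM.

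In re-isolated N1OE the target genes that were called depended on the control set. Against the marked controls 4 of 11 rose and none fell (median 0.78, all genes 0.06), beside 6.74% and 5.5% of all genes. Those that rose were Myod1 (2.36 ± 0.51, adjusted p = 0.00332), Myf5 (1.44 ± 0.42, 0.0277), Dmrt2 (1.42 ± 0.44, 0.0336) and the FGF receptor gene Fgfr4 (1.29 ± 0.42, 0.0475, limma). Myod1 alone stayed past the threshold whichever library was left out. Dmrt2 was lost without control replicate 1 or any N1OE library (adjusted p up to 0.122), Myf5 without control replicate 1 or 7 or any N1OE library (up to 0.0925), and Fgfr4 when control replicate 1 or 7, or N1OE replicate 1, 2 or 3, was dropped (up to 0.205). Against the unmarked controls 2 of 12 rose and 2 fell (median 0.30, all genes 0.09), beside 9.98% and 10.6% of all genes. The FGF antagonist Spry1 rose by 1.31 ± 0.35 (0.00880) and Myf5 by 1.07 ± 0.37 (0.0387), and the forkhead gene Foxc2 fell by 3.81 ± 0.71 (0.000275) and the bHLH inhibitor Id3 by 1.13 ± 0.36 (0.0264). Of these, Myf5 was lost without control replicate 2, 3 or 5 or N1OE replicate 1 or 3 (up to 0.182) and Id3 without control replicate 3, 5 or 6 or N1OE replicate 3 (up to 0.110). With control replicate 7 among the unmarked controls Myf5 and Fgfr4 were lost against the marked set (adjusted p up to 0.0725 and 0.120 over the other settings tried), and Myf5, Foxc2 and Id3 against the unmarked set (up to 0.0577, 0.0645 and 0.188). Over all 9 controls Spry1 alone of 12 rose (1.14 ± 0.31, adjusted p = 0.0297, limma), beside 3.78% of all genes. That call ended once control replicate 9 or N1OE replicate 2, 3 or 4 was dropped (up to 0.135). Myf5 measured 60.7 ± 9.84 CPM in re-isolated N1OE, 28.0 ± 12.6 in controls and 30.1 ± 21.4 in N1KO.

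In N1KO the receptor gene Met, needed for progenitor migration, was the target gene called over all controls (1 of 12, where 0.191% of all genes were lower). Met changed by -1.66 ± 0.37 (adjusted p = 0.0386, limma, list median -0.45, all genes 0.01). Its levels were 23.03 ± 18.02 CPM in N1KO, 61.6 ± 11.6 in controls and 112 ± 43.4 in N1OE, and N1OE exceeded N1KO by 2.45 ± 0.42 (0.00139). The call against N1OE held whichever library was left out (up to 0.0164), while that against controls ended on dropping control replicate 2, 4, 5, 7, 8 or 9, N1OE replicate 2 or 3 or N1KO replicate 1 or 2 (up to 0.366). It also ended in a fit of N1KO and control alone (adjusted p up to 0.160). The comparison of N1OE with N1KO crosses the split in the ratio of genes at 1 read to genes at 2, which cannot be told apart from genotype. Against controls with a like ratio Met was not called, neither in N1OE against the marked nor in N1KO against the unmarked set. Spry1 was also higher in N1OE than in N1KO (1.62 ± 0.40, 0.0155), except without N1OE replicate 2 or N1KO replicate 1 or 2 (up to 0.119). Against the unmarked controls Myod1 fell by 3.70 ± 0.55 in N1KO (1 of 12; adjusted p = 0.00709, up to 0.0292 whichever library was dropped, with 7.65% of genes called, 4.18% higher and 3.47% lower). That call ended with control replicate 7 among the unmarked controls (0.306), when 14 genes were called in all in place of 1013. Dropping N1KO replicate 2 left 292 called and replicate 1 left 591, and dropping control replicate 5, 2 or 3 left 379, 442 or 490. Against the marked ones, where 3.11% of genes were called (1.67% higher and 1.44% lower; 412 genes, but 0 without N1KO replicate 2, with 2291 at an unadjusted p under 0.05, 31 and 33 without control replicate 7 and 8, and 60 and 69 without N1KO replicate 1 and 3), Met fell by 1.77 ± 0.39 (0.0437) and Id3 rose by 1.40 ± 0.32 (0.0480). Each of these was lost without any of 6 of the 8 libraries: Met without control replicate 4, 7, 8 or 9 or N1KO replicate 1 or 2 (up to 0.166) and Id3 without control replicate 7, 8 or 9 or any N1KO library (up to 0.168). Both were also lost with control replicate 7 among the unmarked controls (up to 0.107 and 0.117). The control sets themselves differed in 5 of 12 target genes, all lower in the marked set, where 14% of all genes were lower. They were Myod1 (-3.23), Itm2a (-1.44), Foxc2 (-3.81), Id3 (-1.33) and Lbx1 (-3.60). The Lbx1 call (adjusted p = 0.0280, limma) was lost without replicate 2, 3, 5, 7 or 8 (up to 0.0927). None of the 5 was called with replicate 7 among the unmarked controls (adjusted p 0.250 to 0.438).

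**Figure D4:**
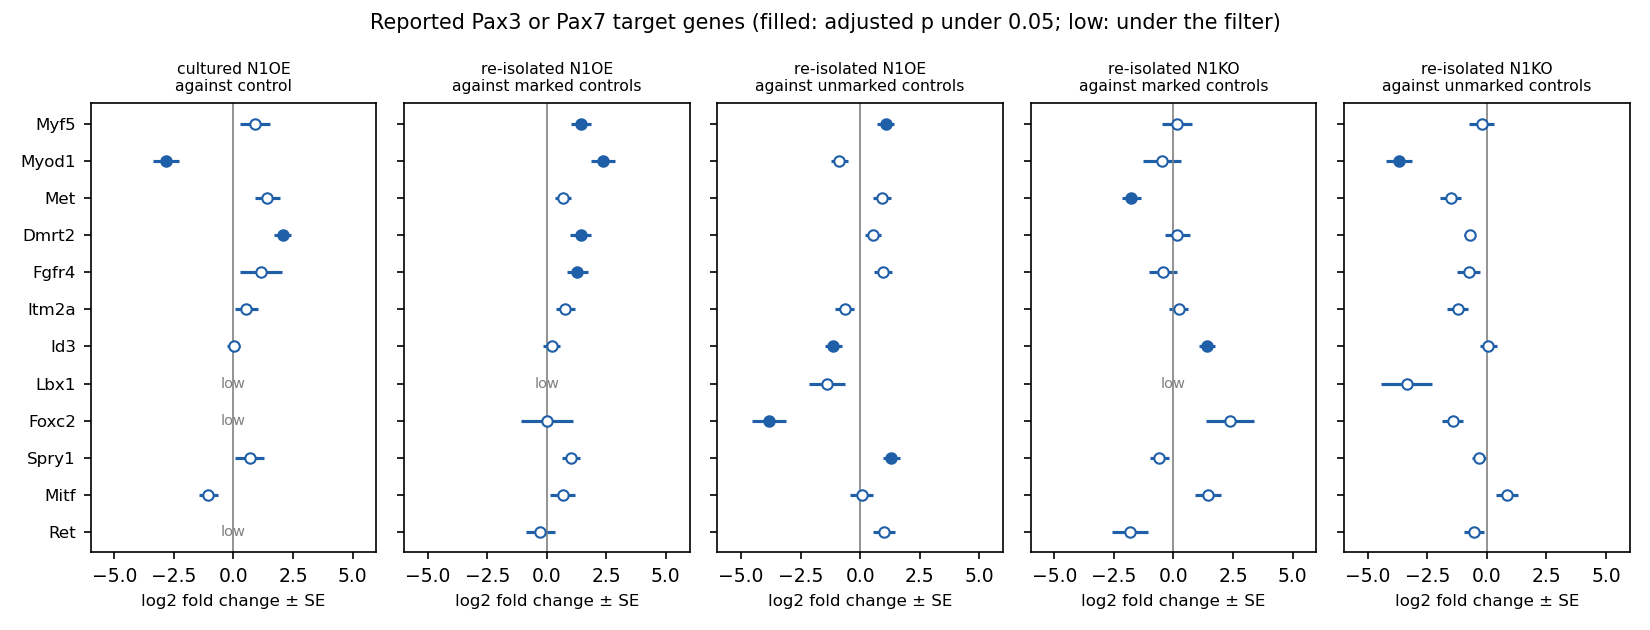
Log2 fold changes ± SE of 12 reported Pax3 or Pax7 target genes in 5 comparisons; filled points passed an adjusted p of 0.05 and genes marked low did not reach 1 CPM in 3 libraries. Myod1 is called lower in cultured N1OE (-2.81), higher in re-isolated N1OE against marked controls (2.36) and lower in N1KO against unmarked controls (-3.70).

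Partners and coactivators of the Pax proteins were described in the same way. Of 11 tested members 3 rose in cultured N1OE, beside 4.73% of all genes (list median 0.31, all genes 0.07), among them Six4 (0.73 ± 0.16, adjusted p = 0.0329) and Eya1 (0.87 ± 0.14, 0.0147, limma), factors of the progenitor network. Dropping any N1OE library ended the calls of Six4 and Eya1, and dropping control replicate 2 that of Six4 (up to 0.146 and 0.0822). In re-isolated N1OE none of 11 was called over all controls. Eya2 fell by 1.83 against the marked controls (adjusted p = 0.00990, and 0.0505 without N1OE replicate 3), and the methyltransferase gene Kmt2b rose by 1.49 against the unmarked ones (0.0156, and up to 0.0665 without control replicate 3 or N1OE replicate 1 or 2). In N1KO Eya2 rose by 2.47 against the unmarked controls (0.0352, up to 0.106 without control replicate 3 or 5 or any N1KO library), and the arginine methyltransferase gene Carm1, a Pax7 coactivator, fell by 1.29 against the marked ones (0.0487, up to 0.161 and lost without any library but control replicate 1). Between the control sets Carm1 (1.51) and Eya2 (2.08) were higher in the marked one. With replicate 7 among the unmarked controls, the calls of Kmt2b in N1OE, of Eya2 and Carm1 in N1KO and of both between the sets were lost (adjusted p up to 0.277). From culture to re-isolation 8 of 11 fell in controls, where 33.9% of all genes did: Kmt2b (-3.84), Carm1 (-2.99), Eya2 (-2.34), Kmt2d (-1.35), Paxbp1 (-1.31), Paxip1 (-0.95), Wdr5 (-0.82) and Six4 (-0.81). Without cultured control replicate 1 Eya2, Paxip1 and Six4 were lost, and without replicate 3 Paxip1, Six4 and Wdr5 (adjusted p up to 0.0927). In N1OE 5 of 11 fell, where 33% of all genes did, among them Carm1 (-3.08), Kmt2b (-2.96), Six4 (-1.04) and Kmt2d (-1.03). Kmt2d was lost whichever cultured N1OE library was left out and Six4 without cultured N1OE replicate 2 or 3 (up to 0.0856 and 0.0709).

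Of the reported targets, Id3 and the receptor gene Ret were higher in re-isolated than cultured controls (3.21 and 5.53) and in N1OE (2.81 and 4.89). Met (-1.20 and -1.84) and Myf5 (-1.50 and -1.15) were lower in each, so that 4 of 12 were called in controls, beside 58.1% of all genes. In N1OE 4 of 10 rose and 3 fell, beside 25.3% and 33% of all genes, with Myod1 (4.12) and Mitf (1.22) higher and Dmrt2 (-1.21) lower besides. Myf5 was lost without cultured control replicate 1 or 3 (up to 0.0958), and in N1OE without cultured N1OE replicate 2 or 3 (up to 0.0835). Mitf was lost whichever cultured N1OE library was left out (up to 0.164). Among 16 satellite cell markers 3 rose in re-isolated N1OE over all controls, beside 3.78% of all genes. They were Megf10 (1.40), Chrdl2 (4.19) and Spry1 (median 0.84, all genes 0.06), and none was called in N1KO (median -0.51). Against the marked controls 6 rose in N1OE (median 1.08), beside 6.74% of all genes, and none was called in N1KO (median -0.33). Against the unmarked ones 5 rose and 1 fell in N1OE (median 0.82), beside 9.98% and 10.6% of all genes. In N1KO 1 rose and 3 fell against them (median -0.80), beside 4.18% and 3.47%, and Heyl, a Notch target, was lower by -2.24 (adjusted p = 0.0101, limma). Chrdl2 was lost without N1OE replicate 2, and Megf10 without N1OE replicate 2 or 3 (adjusted p up to 0.0650 and 0.0648). Of 15 muscle differentiation genes none was called in either over all controls, with medians of -0.50 and -0.07. Against the unmarked controls 9 fell and 1 rose in N1OE (median -1.36), beside 10.6% and 9.98% of all genes, and 5 fell in N1KO (median -1.39), beside 3.47%. For N1OE this comparison crosses the split between the control sets, so genotype and split cannot be told apart in it. The troponin gene Tnnt1 was lower by -3.12 in N1OE (adjusted p = 3.1e-07) and by -2.08 in N1KO (0.0142, limma). Against the marked controls 1 rose in N1OE (median 0.13), beside 6.74% of all genes, and none was called in N1KO (median 0.76). Of the 15, 11 were lower in the marked than in the unmarked controls (median -1.69), where 14% of all genes were. With replicate 7 among the unmarked controls Tnnt1 was lost in N1OE and N1KO and Heyl in N1KO (0.0963, 0.707 and 0.250), and no gene of these lists was called between the sets or in N1KO. In cultured N1OE 8 of 14 fell (median -3.56), beside 6.03% of all genes. Among them was the intermediate filament gene Des (-3.66 ± 0.62, adjusted p = 0.0162, limma), which was lost without N1OE replicate 2 or 3 (up to 0.0850). Of 9 tested premyogenic mesoderm genes 2 fell in re-isolated N1OE, beside 3.29% of all genes, among them Meox2 (-2.50 ± 0.54, adjusted p = 0.00678, limma). Against the marked controls 1 of 9 rose and 3 fell, beside 6.74% and 5.5% of all genes. Against the unmarked ones 1 of 8 rose and 3 fell, beside 9.98% and 10.6%. Meox2 fell in each (by 2.81 and 2.11). In N1KO none was called over all or unmarked controls and 1 of 9 fell against the marked ones, beside 1.44% of all genes.

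Genes with a pattern like Pax3 or Pax7 were ranked by Pearson's r of log2 CPM, as a description. The libraries share groups, kits and depth, and no p is given. Over the 16 re-isolated libraries and 13850 genes, Pax3 was most like Tmem229a (r = 0.959), the inhibitory synapse scaffold gene Gphn (0.937), the chemerin receptor gene Cmklr1 (0.934), the hypoxia factor Epas1 (0.913), the cadherin Cdh19 (0.911) and the kinesin Kif1b (0.906). Pax7 was most like Jade1 (0.944), a scaffold of a histone acetyltransferase complex, followed by Ccdc83 (0.930), the protein kinase C gene Prkcq (0.926), the potassium channel gene Kcnt1 (0.919), the lectin Chodl (0.918) and Ankrd52 (0.915). Pax3 and Pax7 had r = 0.524 with each other. Of the target list, Fgfr4 (r = 0.860, rank 58) and Myf5 (0.852, rank 68) stood nearest to Pax7, and Mitf (0.606, rank 613) nearest to Pax3. Over all 23 libraries, where the change of setting enters, Pax3 and Pax7 had r = -0.764. There Pax3 was most like Mgat5 (0.930), Cxxc4 (0.922), Rere (0.920), Klhl11 (0.917), Katnip (0.916, rank 5) and Il4 (0.913), and Pax7 was most like S1pr3 (0.979), Sparcl1 (0.977), Jun (0.977), Gem (0.976), Ndrg2 (0.9753) and Oasl2 (0.9749).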

How the data were processed

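RNA-seq libraries were grouped by sample title. The submitters' processing notes name FastQC, Trimmomatic 0.33, featureCounts, edgeR and mm10, but the sources used here do not give aligner, annotation or strand setting. Each deposited value is a log2 CPM made by the authors with an offset of 0.0548 CPM, so that -4.19 stands for 0 reads. The deposited table's own name speaks of a correction that no label describes. Whole reads were recovered for 100% of values (tolerance 0.05 reads) and gave CPM, RPKM and read ratios; 95% intervals of reads cover counting error only, and the floor is 3 reads.

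Deposited log2 values were tested with limma 3.58.1 (R 4.3.3, eBayes with trend, two-sided, genes reaching 1 CPM in 3 or more of the fitted libraries, Benjamini-Hochberg over all genes tested, threshold 0.05), after it was tested on simulated data. Each setting was fitted alone, and the 3 re-isolated groups shared 1 fit. Within-set comparisons used 2 groups, and the difference of N1OE effects used all 5. Ratios were compared by exact permutation (SciPy 1.17.1). Coordinates and exon lengths are from GENCODE M21, which held 21186 of 21264 IDs, and promoters from RefSeq, which held Pax7 and not Pax3 in the table used. Named are both genes, called members of the Pax, target and partner lists, up to 4 of each other list, and the 6 genes most alike (predicted genes left out). Alternatives were other offsets, filters and scaling, limma-voom, a replicate block, fits of 2 groups, left-out libraries and, added after the data were seen, the place of control replicate 7. Members, lists and the comparison of the control sets were chosen with earlier results of these data known. Some called list members are counted but not reported by name here.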

Additional observations from a re-analysis of the deposited data

Results flagged for a closer look

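Pax7 in re-isolated N1OE was flagged for replicate 2, which lay far above the other 3 libraries (154 CPM against 91.8 to 98.6 CPM). On the log2 scale its gap to the nearest library was 0.863 of the range of the 4. Chance flags about 1 in 20 groups, and 14 groups were looked at for Pax3, Pax7 and their ratio. Without this library Pax7 exceeded the marked controls by 1.64 (adjusted p = 0.0325, limma).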

How the results depend on the processing

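Of 473 recomputed values for Pax3, Pax7 and their ratio, 279 with a library left out and 158 under other settings kept their direction and side of the threshold. The replicate numbers gave no clear pairing of the libraries, with correlations of deviations from -0.158 to 0.468, and in culture 2 of 3 pairs under 0.1. Cultured control replicates 1 and 3 did correlate best with the N1OE library of the same number (0.037 and 0.468), so pairing in culture is not settled. With the replicate block Pax3 in cultured N1OE turned to -0.42 and Pax7 in N1KO against control to 0.10; the block changed no other call of Pax3 or Pax7, but ended, among genes named in the text, those of Met in N1KO, Pax1 between N1OE and N1KO, Spry1 and Megf10 in re-isolated N1OE over all controls, Spry1 between N1OE and N1KO and Six4 in culture. Of all genes it called 445 in place of 1000 in re-isolated N1OE and 61 in place of 93 in N1KO, where a fit of the 2 groups alone called 35, offsets of 1 and 5 CPM 240 and 321, no filter 179 and limma-voom 285. Between N1OE and N1KO that fit called 1608 in place of 1040. In N1KO against marked controls the offsets called 718 and 739 in place of 412, and limma-voom 223 in place of 475 for the difference between settings; without the 2 libraries of other description form 196 were called in culture in place of 1325. Pax7 in N1KO also turned under an offset of 5 CPM (0.00589) and median ratio scaling (0.0206), and the difference of Pax7 effects between settings under offsets of 1 and 5 CPM (0.84 and 1.01). Between the control sets Pax3 missed the threshold without a filter (-1.58, adjusted p = 0.0610), and with replicate 7 among the unmarked controls Pax3 (-0.53) and Pax7 (-1.02) did. That placement called 0 genes in place of 3645 between the sets (2304 at an unadjusted p under 0.05, limma), 31 in place of 412 and 14 in place of 1013 in N1KO against marked and unmarked controls, and 889 in place of 2731 in N1OE against unmarked ones. Leaving replicate 7 out instead left 2434 called between the sets. Pax3 in N1KO against marked controls passed with offsets of 1 and 5 CPM (2.14 and 1.66) and limma-voom (2.29). The cause was not tested. Leaving out libraries gave ranges of -0.42 to 0.94 for Pax3 in cultured N1OE, -1.92 to -1.18 and -1.60 to -0.997 for Pax3 and Pax7 between the control sets and 1.92 to 2.67 for Pax3 in N1KO against marked controls. Ranges for Pax7 were -0.86 to 0.61 in N1KO over all controls, -0.26 to 1.21 against marked and -1.61 to -0.14 against unmarked ones, and -1.18 to 0.40 for the difference between settings. Pax7 between settings in controls was 5.51 and 3.39 with offsets of 1 and 5 CPM, and in N1OE 6.36 and 4.40.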
